A study of Mus musculus with 19 samples.

Results

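The lysyl oxidase family was examined across mammary glands and ERBB2-driven mammary tumors of mice with or without mutant p53 in fibroblasts. The family consists of *Lox*, *Loxl1*, *Loxl2*, *Loxl3* and *Loxl4*, and these 5 genes were chosen by symbol among the 46078 genes of the table. The rule itself used no measured value, but earlier results of these data were known when the family was chosen. RNA-seq covered 19 libraries. Mammary glands of wild-type mice formed the MGWT group (n = 3). MGN glands came from tumor-bearing mice with wild-type p53 in their fibroblasts (*N* mice) and showed no malignant lesion (n = 4). Replicate 1 of MGN carried MMTV-neu and Fsp-Cre, whereas replicates 2, 3 and 4 carried MMTV-neu and the p53wm-R172H/+ allele without Cre. MGNP glands (n = 4), also without malignant lesions, and TNP tumors (n = 4) came from *NP* mice, which carried MMTV-neu, p53wm-R172H/+ and Fsp-Cre together. TN tumors (n = 4) all carried MMTV-neu and Fsp-Cre, so that TN and most MGN samples differed in Cre and in the p53 allele as well as in tissue. Apart from MGWT, every sample carried MMTV-neu, a transgene by which the mammary epithelium makes wild-type ERBB2. The p53wm-R172H allele gives wild-type p53 until Cre, driven here by the fibroblast-specific Fsp promoter, turns it into the allele for the R172H mutant protein. The mice were females on a mixed FVB/C57/BALB/c background, and wild-type mice were age-matched. The library names of TNP replicates 1 and 2 share an animal number, and both may come from the same mouse.

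Lysyl oxidases are secreted, copper-dependent amine oxidases. They oxidize lysine and hydroxylysine side chains of collagen and elastin to aldehydes, which then condense into the cross-links that stiffen fibres. *Lox* and *Loxl1* encode enzymes with a propeptide that BMP1-type proteases remove, and *Loxl2*, *Loxl3* and *Loxl4* encode enzymes with scavenger receptor cysteine-rich domains in place of it. In mammary tissue fibroblasts are a main source of the family, and cross-linking of tumor collagen is known for its link to tissue stiffness.

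All members share the carboxy-terminal catalytic domain, and the stretch below is shown because it is the longest run of residues, 13 codons, that the annotated proteins of all 5 members have in common. Capitals mark its single lysine codon, codon 6, for the lysine that joins a tyrosine to form the enzyme's quinone cofactor. The sequences are coding strand, from GENCODE transcripts on GRCm38. Each lies within a single exon, at chr9:58293627-58293665 on the minus strand (*Loxl1*), chr14:69689089-69689127 on the plus strand (*Loxl2*), chr6:83050177-83050215 on the plus strand (*Loxl3*) and chr19:42598717-42598755 on the minus strand (*Loxl4*).
Loxl1: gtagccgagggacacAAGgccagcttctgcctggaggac
Loxl2: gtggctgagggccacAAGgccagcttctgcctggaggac
Loxl3: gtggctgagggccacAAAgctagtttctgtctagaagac
Loxl4: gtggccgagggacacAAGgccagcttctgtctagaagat
Of these 39 bases, 29 were the same in the 4 genes, so the shared residues were spelled with different codons. The longest run of identical bases between transcripts of any pair of members was 12 to 32 bases, which is shorter than a read of 75 bases. Over the aligned residues *Lox* and *Loxl1* were 57.9% identical, and *Loxl2*, *Loxl3* and *Loxl4* were 56.7% to 58.1% identical to each other. Identity between these subgroups was 49.5% to 54.8%.

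Recovered reads on genes numbered 20899152 to 27262440 in the 16 libraries from mice with MMTV-neu and 54677315 to 62645459 in the 3 MGWT libraries. *Erbb2*, the gene of the driving oncogene, had 73430 to 155000 normalized counts in TN, 84390 to 117600 in TNP and 1845 to 14720 in glands. The *Trp53* total count does not tell the mutant from the wild-type allele and checks no genotype label. Marker lists set the tissues apart. A score was formed for each list as the mean of log2(normalized count + 1) over its genes. The 9 white adipocyte markers scored 13.5 to 15.06 in MGN and MGNP but 4.53 to 5.88 in MGWT, which is low for tissue labelled mammary gland, and 2.88 to 9.1 in tumors. The 12 skeletal muscle markers scored 9.22 to 17.3 in MGNP, 4.13 to 9.96 in MGN and 2.98 to 3.17 in MGWT. The 10 fibroblast markers scored 11.24 to 11.7 in MGN, 10.53 to 10.82 in MGNP, 8.85 to 9.55 in MGWT, 7.23 to 9.25 in TN and 7.61 to 8.13 in TNP. In these bulk samples, fewer cells of a type and less RNA per cell cannot be told apart. For MGWT, genotype cannot be told apart from greater depth and from the different cell makeup.

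The gene that stood out in tumors was *Loxl3*, which rose about 4-fold in both tumor groups against their glands, while *Loxl1* fell in both. *Loxl2* fell in TN against MGN and *Loxl4* fell in TNP against MGNP. *Lox* passed in neither. A gene was called when limma gave a Benjamini-Hochberg adjusted p under 0.05 over all genes tested and a change of at least 2-fold. In TN against MGN 3 of 5 members were called, 1 higher and 2 lower, where 35.1% of all genes tested were called, 12.8% higher and 22.3% lower. In TNP against MGNP 3 of 5 members were called, again 1 higher and 2 lower, beside 38.7% of all genes, 14.7% higher and 24.0% lower. With 5 genes, these shares are too coarse to set the family apart from other genes.

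**Figure D1:**
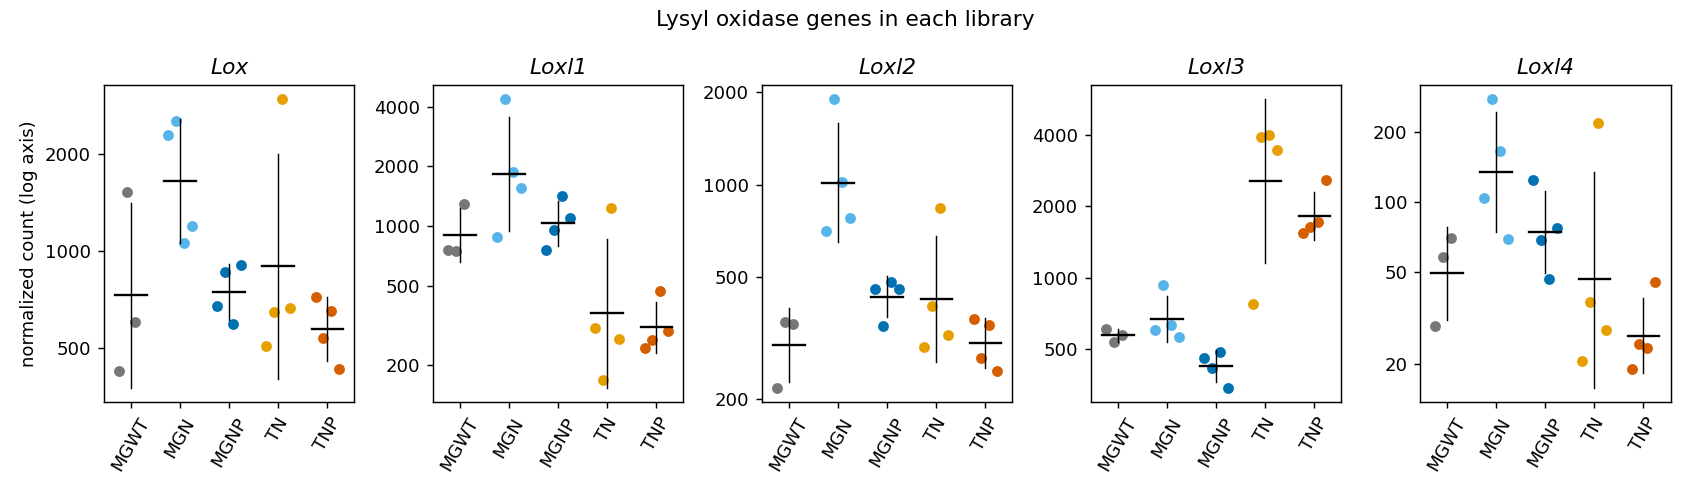
Normalized count (log axis) of each lysyl oxidase gene in each of the 19 libraries, by group, with points in replicate order from left to right. Horizontal lines mark the mean and vertical lines ± 1 SD of the log2 values; *Loxl3* was highest in TN and TNP, and TN replicate 3 was the highest TN library for every member.

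*Loxl3* encodes an enzyme needed for palate and spine development in mice. It lies at chr6:83034173-83052562 on the plus strand of GRCm38 (ENSMUSG00000000693). TN replicates 1 to 4 had 777, 3926, 4001 and 3456 normalized counts, and MGN replicates 1 to 4 had 604, 927, 634 and 561. TNP replicates 1 to 4 had 1542, 1632, 1715 and 2575, and MGNP replicates 1 to 4 had 461, 418, 487 and 345. The groups overlapped only in that TN replicate 1, at 777, lay below the highest MGN gland, at 927, and every TNP tumor lay above every gland in the series. *Loxl3* rose in TN against MGN with a log2 fold change of 1.93 ± 0.50 (SE; limma adjusted p = 0.0119), 3.81-fold. It rose in TNP against MGNP by 2.1 ± 0.20 (SE; limma adjusted p = 6.47e-05), 4.30-fold. MGWT had 610.3, 536 and 571 normalized counts, near the lower MGN glands, and the log2 fold change of MGN against MGWT was 0.22 with a 95% interval of -0.20 to 0.64. Without TN replicate 1 the log2 fold change of TN against MGN was 2.5 (limma adjusted p = 0.00022).

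*Loxl3* shares 535 exon bases with *Htra2*, a mitochondrial protease gene on the opposite strand, and whether reads were counted by strand is not given in the sources used here. *Htra2* had 593.8 to 797.6 normalized counts in MGN and MGNP and 897.7 to 1075 in TN and TNP. It was higher by 0.39 ± 0.12 on the log2 scale in TN against MGN (SE; limma adjusted p = 0.027) and by 0.48 ± 0.13 in TNP against MGNP (SE; limma adjusted p = 0.0142), the same direction as *Loxl3*. The part of *Htra2* reads in the *Loxl3* values was not tested. Values of other cell types moved with *Loxl3*. The 9 luminal epithelial markers summed to 97350 to 180867 normalized counts in TN and 101430 to 138261 in TNP against 12295 to 30688 in MGN and MGNP. Of the 9, 7 were called higher and 2 lower in each tumor comparison. In MGWT these markers summed to 79946 to 96145. The 6 genes of a chondrocyte-like matrix list summed to 21880 to 80934 in TN and 32757 to 70041 in TNP against 355 to 5209 in MGN and MGNP. *Acan*, the cartilage proteoglycan aggrecan, had no more than 3 reads in any library of these groups, and *Matn3* was at 0 throughout MGN and MGNP. Of the 4 genes tested in TN against MGN 4 were called higher, and 3 of 3 in TNP against MGNP. In MGWT the list summed to 5958 to 7032. The part of either list in the *Loxl3* result was not tested.

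*Loxl1*, whose enzyme is known for its role in elastic fibre upkeep, lies at chr9:58287738-58313186 on the minus strand (ENSMUSG00000032334). It had 308, 169, 1240.1 and 271 normalized counts in TN replicates 1 to 4 and 879, 4351, 1865 and 1562 in MGN replicates 1 to 4. It had 243, 266, 473 and 297 in TNP and 758, 958, 1420.0 and 1102 in MGNP, in the same order. Of the 4 TN tumors 3 lay below every gland, TN replicate 3 lay within the glands, and TNP lay wholly below MGNP. *Loxl1* fell by 2.33 on the log2 scale in TN against MGN (SE 0.66, limma adjusted p = 0.0167) and fell by 1.74 in TNP against MGNP (SE 0.26, limma adjusted p = 0.000708). In MGWT it had 761, 746 and 1295 normalized counts.

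*Loxl2* encodes an enzyme that also acts on basement membrane collagen, and it lies at chr14:69609068-69695834 on the plus strand (ENSMUSG00000034205). Normalized counts were 297, 402, 840.2 and 323 in TN replicates 1 to 4 and 707, 1899, 1023 and 777 in MGN replicates 1 to 4. They were 365, 273, 349 and 247 in TNP and 456, 345, 483 and 458 in MGNP. TN replicate 3 was again the highest tumor and the only TN library within the range of MGN, and TNP and MGNP overlapped between 345 and 365. *Loxl2* fell by 1.26 in TN against MGN (SE 0.40, limma adjusted p = 0.0286). This call did not hold when any of MGN replicates 2 or 3 or TN replicates 1, 2 or 4 was left out, with adjusted p of 0.057 to 0.0712. In TNP against MGNP the log2 fold change was -0.50 with a 95% interval of -0.94 to -0.06 (limma adjusted p = 0.0524). *Loxl2* shares 301 of its 5405 exon bases with the antisense gene *Gm27177*, and within these shared bases reads of the pair cannot be told apart without strand.

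*Loxl4* was the lowest member, with 19.1 to 278 normalized counts in any library, and lies at chr19:42593982-42612813 on the minus strand (ENSMUSG00000025185). It had 19.1, 24.4, 23.4 and 44.9 normalized counts in TNP replicates 1 to 4 and 125, 68.5, 46.6 and 77.5 in MGNP. The groups did not overlap, with TNP replicate 4 at 44.9 just under MGNP replicate 3 at 46.6. *Loxl4* fell by 1.46 in TNP against MGNP (SE 0.39, limma adjusted p = 0.0121). The skeletal muscle markers were 12450.5 to 2948423 normalized counts in sum in MGNP and 116.6 to 6866 in TNP, none of the 12 at 0 throughout either group. Once the muscle score entered the fit as a covariate, the log2 fold change was -0.69 (limma adjusted p = 0.432) and the call was lost. That score was 9.22 to 17.3 in MGNP and 3.11 to 8.62 in TNP, without overlap. The fit could therefore hardly tell muscle from tissue, and the part of muscle in the *Loxl4* values was not tested. TN replicates 1 to 4 had 20.5, 36.9, 219 and 28.0 normalized counts and MGN replicates 1 to 4 had 104, 278, 166 and 69. TN replicate 3 thus stood among the MGN glands and the other TN tumors below all of them, and the log2 fold change of -1.51 did not pass (95% interval -3.21 to 0.18, limma adjusted p = 0.119).

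*Lox*, whose enzyme is required for the integrity of the aorta and other elastic tissues, lies at chr18:52516067-52529867 on the minus strand (ENSMUSG00000024529). TN replicates 1 to 4 had 508, 648, 2968 and 664 normalized counts and MGN replicates 1 to 4 had 2304, 2537, 1063 and 1201. TNP had 722, 537, 652 and 428, and MGNP had 675, 861, 594 and 903, in the same order. TN replicate 3 was the highest of all 19 libraries, whereas the other 3 TN tumors lay below all MGN glands. The log2 fold change was -0.88 in TN against MGN (95% interval -2.15 to 0.39, limma adjusted p = 0.215) and -0.38 in TNP against MGNP (95% interval -0.86 to 0.10, limma adjusted p = 0.156).

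TN replicate 3 decided several of these values. It had the highest fibroblast score of the 8 tumors, at 9.25, the highest skeletal muscle score, at 10.9, and 69617 normalized counts of *Col1a1*, the main chain of type I collagen, where the other TN tumors had 7676 to 11066. The muscle markers summed to 275.4 to 30575.5 in TN and none of the 12 was at 0 throughout. Without this tumor all 5 members were called in TN against MGN, beside 6737 of all genes, where 6298 of all genes were called with it. *Lox* then fell by 1.45 (limma adjusted p = 0.00846) and *Loxl4* fell by 2.25 (limma adjusted p = 0.00695), *Loxl1* fell by 2.92 and *Loxl2* fell by 1.59, while *Loxl3* still rose, by 1.71. The part of surrounding stroma or muscle in the values of this tumor was not tested.

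**Figure D2:**
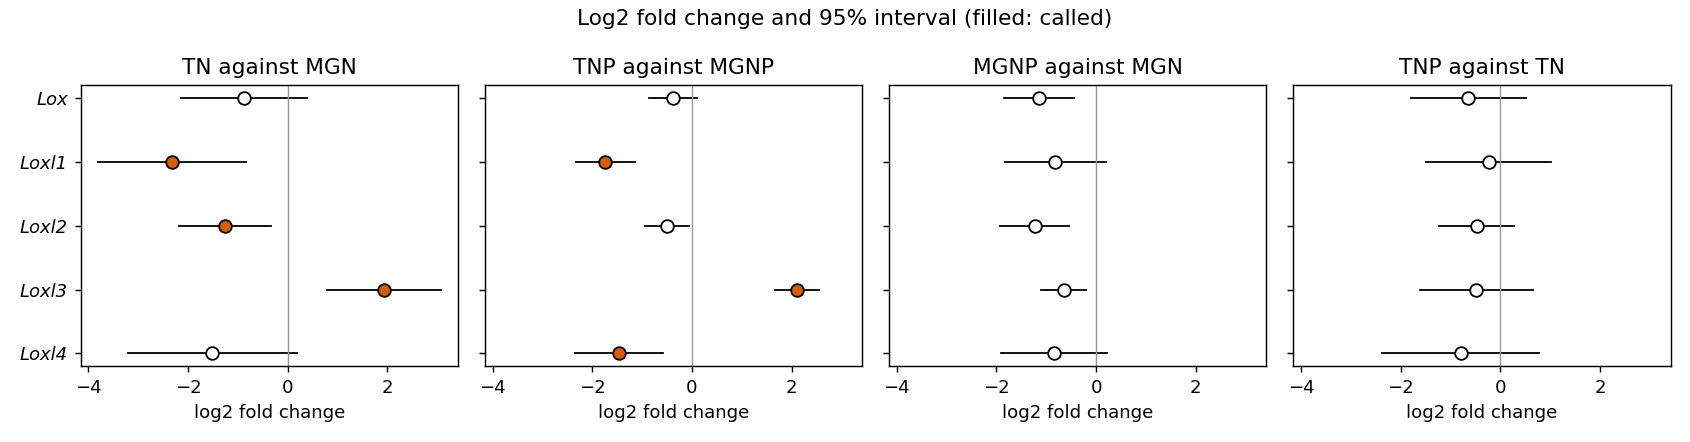
Log2 fold change (x axis) of each lysyl oxidase gene in 4 comparisons, with the 95% interval from limma as a line and filled points for called genes. *Loxl3* lay to the right and *Loxl1* to the left in both comparisons of tumor with gland, and no point was filled in the comparisons of *NP* with *N*.

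The comparison of MGNP with MGN asked whether mutant p53 in fibroblasts changed the gland. MGN replicates 2, 3 and 4 lacked Cre and replicate 1 lacked the p53wm-R172H allele, so mutant p53 cannot be fully told apart from Cre here. No member was called, and neither was any other gene (0% of 18563 tested with limma), although 1950 genes had an unadjusted p under 0.05. edgeR on the recovered reads also called 0 genes, and DESeq2 called 526. Limma called 318 genes without MGNP replicate 3 and 16 in a fit of all 5 groups, with no member among them. All members had negative log2 fold changes. For *Loxl2* all MGNP glands, at 345 to 483 normalized counts, lay below all MGN glands, at 707 to 1899, and the log2 fold change was -1.23 (95% interval -1.92 to -0.54, limma adjusted p = 0.318). For *Lox* all MGNP glands, at 594 to 903, also lay below all MGN glands, at 1063 to 2537, with a log2 fold change of -1.15 (95% interval -1.85 to -0.44, limma adjusted p = 0.327). DESeq2 called these genes lower, with log2 fold changes of -1.34 for *Loxl2* (DESeq2 adjusted p = 0.00544) and -1.23 for *Lox* (DESeq2 adjusted p = 0.0121). *Loxl3*, *Loxl1* and *Loxl4* had log2 fold changes of -0.65, -0.82 and -0.85 (limma adjusted p = 0.338, 0.57 and 0.579). The fibroblast score moved the same way, 10.72 in MGNP against 11.42 in MGN, as did the summed fibroblast markers at 83896 to 207592 against 193822 to 305905. Of the 10 markers, *Tcf21* had at most 3 reads in each MGNP library. The skeletal muscle score differed more, 14.39 in MGNP against 8.13 in MGN, and the 12 muscle markers, none at 0 throughout either group, summed to 12450.5 to 2948423 against 364.6 to 17936. With that score in the fit the log2 fold changes were -1.75 for *Lox*, -0.75 for *Loxl1*, -1.32 for *Loxl2*, -0.64 for *Loxl3* and -1.73 for *Loxl4*, and no member was called. The score overlapped little between the groups, at 9.22 to 17.3 in MGNP and 4.13 to 9.96 in MGN. That fit could therefore hardly tell muscle from genotype. The part of fibroblast content in the lower lysyl oxidase values was not tested.

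Between TNP and TN no member was called, where 0.0421% of the genes tested were, 7 in number. DESeq2 called 86 genes, edgeR 0 and limma without TN replicate 1 called 52, with no member among them. Log2 fold changes ran from -0.80 for *Loxl4* (95% interval -2.38 to 0.78) to -0.23 for *Loxl1* (95% interval -1.49 to 1.02). For *Loxl3* TNP was at 1866 ± 478 normalized counts against 3040.0 ± 1528 in TN (SD, n = 4), and the log2 fold change was -0.48 (95% interval -1.61 to 0.65). *Lox* had a log2 fold change of -0.65 (95% interval -1.80 to 0.51) and *Loxl2* of -0.48 (95% interval -1.22 to 0.27). These intervals allow changes beyond 2-fold in one direction or both for every member. Without TN replicate 3 the log2 fold changes were -0.07 for *Lox*, 0.35 for *Loxl1*, -0.15 for *Loxl2*, -0.26 for *Loxl3* and -0.06 for *Loxl4*. The spread within TN also turned on single tumors. For *Lox* the highest TN library was 5.84 times the lowest, and 1.31 times without TN replicate 3, against 1.69 times in TNP. For *Loxl3* it was 5.15 times, and 1.16 times without TN replicate 1, against 1.67 times in TNP. The interaction of tissue and genotype, which asks whether tumor and gland differed by another amount in *NP* than in *N*, called no member and 0% of all genes with limma. The mixed genotypes of MGN enter this contrast too. For the interaction, 1536 genes had an unadjusted p under 0.05 with limma, and edgeR called 0 genes and DESeq2 325. Leaving out MGNP replicate 3, MGNP replicate 4 or TN replicate 1, limma called 194, 2 and 20 genes, and no member. For *Loxl3* the interaction was 0.17 (95% interval -1.05 to 1.40) and for *Loxl1* it was 0.59 (95% interval -1.02 to 2.20). It was 0.50 for *Lox*, 0.76 for *Loxl2* and 0.05 for *Loxl4*, and without TN replicate 3 the values for *Lox*, *Loxl1*, *Loxl2*, *Loxl3* and *Loxl4* were 1.07, 1.18, 1.08, 0.39 and 0.79.

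Against the wild-type gland, *Loxl2* and *Loxl4* were higher in MGN, *Loxl3* was higher in both tumor groups, and *Loxl1* was lower in TNP. The 4 comparisons share the 3 MGWT libraries. In MGN against MGWT 2 of 5 members were called, beside 37.0% of all genes. *Loxl2*, with 218, 356 and 351 normalized counts in MGWT, rose by 1.75 ± 0.35 (SE; limma adjusted p = 0.00297) and all MGN glands lay above all MGWT glands. *Loxl4*, with 29.0, 58.1 and 70.3 in MGWT, rose by 1.44 ± 0.50 (SE; limma adjusted p = 0.0357). MGN replicate 4, at 69, overlapped MGWT, and the *Loxl4* call was lost without MGWT replicate 1 or 2 or without MGN replicate 2 or 3 (limma adjusted p = 0.0648 to 0.133). *Lox*, at 423, 1527 and 601 in MGWT, had a log2 fold change of 1.18 and did not pass (limma adjusted p = 0.0613), and neither did *Loxl1*, with 1.02 (limma adjusted p = 0.101). In MGNP against MGWT no member was called, where 32.6% of all genes were, and the log2 fold changes were 0.03 for *Lox*, 0.19 for *Loxl1*, 0.52 for *Loxl2*, -0.43 for *Loxl3* and 0.59 for *Loxl4*.

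In TN against MGWT *Loxl3* was the only member called, where 42.5% of all genes were, and rose by 2.15 ± 0.55 (SE; limma adjusted p = 0.0117). *Lox*, *Loxl1*, *Loxl2* and *Loxl4* had log2 fold changes of 0.30, -1.31, 0.49 and -0.07, and without TN replicate 3 *Loxl1* was called as well, with -1.90. In TNP against MGWT 2 of 5 members were called, where 47.8% of all genes were. *Loxl3* rose by 1.67 ± 0.18 (SE; limma adjusted p = 6.71e-05) and *Loxl1* fell by 1.55 (SE 0.28, limma adjusted p = 0.00117). *Lox*, *Loxl2* and *Loxl4* had log2 fold changes of -0.35, 0.02 and -0.87 there.

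Ordered by mean log2 level, *Loxl1*, *Loxl2*, *Loxl4* and *Lox* all had MGN first. *Loxl3* had TN first, then TNP, MGN, MGWT and MGNP. *Lox* ran MGN, TN, MGNP, MGWT and TNP, and *Loxl1* and *Loxl4* ran MGN, MGNP, MGWT, TN and TNP. *Loxl2* ran MGN, MGNP, TN, TNP and MGWT. Of the 20 pairs of neighbours in these orders, none passed a two-sided exact permutation test after adjustment. The neighbours that did not overlap were MGN over MGNP for *Loxl2* and TNP over MGN for *Loxl3* (each exact p = 0.0286, adjusted p = 0.286), and MGWT over MGNP for *Loxl3* (exact p = 0.0571, adjusted p = 0.381). With 4 samples a group 0.0286 is the smallest p such a test can give, and with 3 against 4 it cannot fall below 0.0571. Over these 20 pairs none could therefore pass the adjustment, even without overlap, so the test cannot decide whether neighbours differed.

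Compared per kb of exon, the makeup of the family differed between tumor and gland. By group means *Loxl1* was the largest part of the family in glands, at 43.8% ± 12.3 of the family sum in MGN, 47.2% ± 7.18 in MGNP (SD, n = 4) and 43.6% ± 12.1 in MGWT (SD, n = 3). *Lox* exceeded it in MGN replicate 1, at 46.6% against 25.7%, and in MGWT replicate 2, at 43.1% against 30.5%. *Loxl3* was the largest part in tumors, at 57.4% ± 19.4 in TN and 58.4% ± 8.53 in TNP (SD, n = 4), where *Loxl1* made up 13.1% ± 8.19 and 14.1% ± 3.96. Every tumor had a *Loxl3* share of at least 39.4%, above the highest gland at 26.6%. These shares were chosen after the values were seen. Among 40 exact permutation tests in the family, the p of 0.0286 for *Loxl3* and *Loxl1* in each tumor comparison became 0.152 after adjustment. At these group sizes none of the 40 could pass, even without overlap, so the adjusted values cannot decide whether the shares differed. *Lox* held 18.2% to 28.1% in the group means, *Loxl2* held 8.17% to 14.4% and *Loxl4* held 0.946% to 2.92%. The family sum per kb was 1417 ± 705 normalized counts per kb in MGN, 672 ± 75.8 in MGNP, 1166 ± 680 in TN, 688 ± 87.5 in TNP (SD, n = 4) and 655 ± 136 in MGWT (SD, n = 3).

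**Figure D3:**
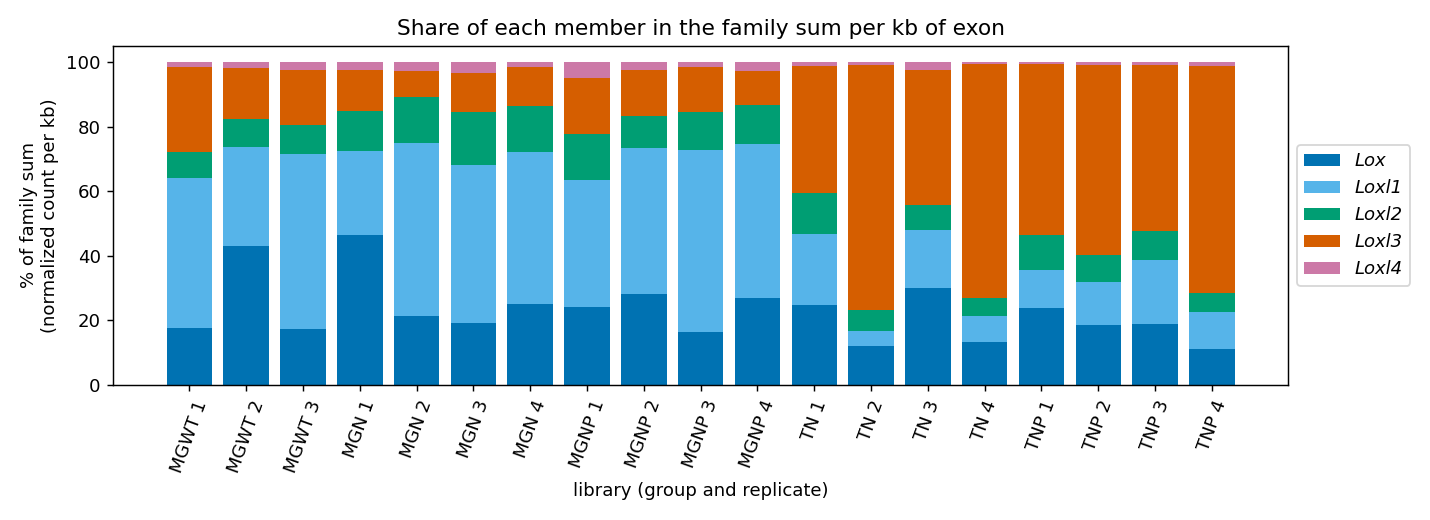
Share of each lysyl oxidase gene in the family sum of normalized counts per kb of exon (y axis, percent), 1 bar per library. *Loxl3* took 39.4% to 76.0% of the sum in the 8 tumors and 8.16% to 26.6% in the 11 glands.

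The fibroblast score differed more between gland and tumor than the level of any lysyl oxidase gene that fell. Its difference was -3.39 between TN and MGN and -2.87 between TNP and MGNP (each exact permutation p = 0.0286). Of the 9 fibroblast markers tested, 9 fell in TN against MGN and 8 in TNP against MGNP. With the fibroblast score subtracted from each log2 level, *Loxl3* was 5.33 higher in TN than in MGN and 4.97 higher in TNP than in MGNP. On the same scale, the differences for *Lox* were 2.52 and 2.49, for *Loxl2* 2.14 and 2.37, for *Loxl4* 1.88 and 1.41, and for *Loxl1* 1.07 and 1.13. None of the 40 exact permutation tests on this scale passed after adjustment, the lowest adjusted p being 0.127. At these group sizes none of the 40 could pass, even without overlap. The adjusted values therefore cannot decide whether the groups differed on this scale. The direction depended on the reference: with the log2 sum of *Col1a1* and *Col1a2* subtracted instead, *Loxl3* was still higher in tumors, by 2.52 in TN and 2.06 in TNP, but the differences for *Loxl1* were -1.73 and -1.78, for *Loxl4* -0.92 and -1.51, for *Loxl2* -0.66 and -0.55 and for *Lox* -0.29 and -0.43.

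**Figure D4:**
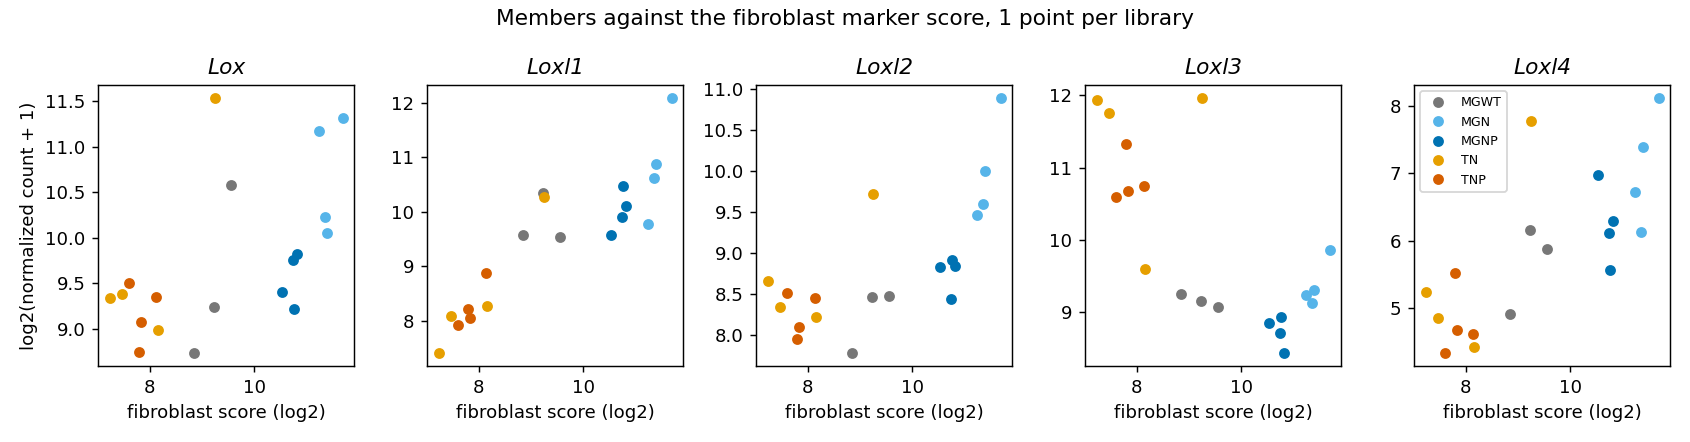
Level of each lysyl oxidase gene, as log2(normalized count + 1) on the y axis, against the mean log2 level of 10 fibroblast markers on the x axis, 1 point per library. For *Loxl3* the tumors lay at the upper left, with fibroblast scores of 7.23 to 9.25, except that TN replicate 1 lay lower than MGN replicate 2. MGN and MGNP lay at the lower right, and MGWT lay low at scores of 8.85 to 9.55, which overlapped those of the tumors. For the other members MGN lay at the upper right.

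*Loxl3* also varied apart from its relatives over the 19 libraries. Pearson's r of the log2 levels was 0.81 for *Lox* with *Loxl2*, 0.82 for *Loxl2* with *Loxl4*, 0.80 for *Loxl1* with *Loxl4*, 0.76 for *Lox* with *Loxl4*, 0.74 for *Loxl1* with *Loxl2* and 0.59 for *Lox* with *Loxl1*. With *Loxl3* it was -0.56 for *Loxl1*, -0.23 for *Loxl4*, -0.11 for *Loxl2* and -0.03 for *Lox*. Taken as deviations from the group means, r was positive for every pair, from 0.24 for *Loxl1* with *Loxl3* to 0.78 for *Loxl1* with *Loxl2*. These are descriptions over libraries that share groups and normalization.

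Among 13333 protein-coding genes with a mean of at least 50 normalized counts, those most like each member were listed by Pearson's r over the 19 libraries. For *Loxl1* they were *Rcn3* (r = 0.98), *Col6a2* and *Col6a1*, which encode chains of type VI collagen, *Mfap2*, a microfibril protein gene, and *Ssc5d*. For *Loxl2* they were the collagen genes *Col6a3* (r = 0.94), *Col3a1* and *Col5a2*, with *Fstl1* and the protease gene *Ctsk*. For *Lox* they were the integrin gene *Itga1* (r = 0.85), the microfibril gene *Fbn1*, *Loxl2*, *Aspn* and *Fstl1*, and for *Loxl4* they were *Csgalnact1* (r = 0.90), *Fstl1*, *Il1rl2*, *Pheta2* and *Rab3il1*. For *Loxl3* they were *Tusc3* (r = 0.96), *Hs3st1*, *Gpsm2*, *Itgb1* and *Sptan1*.

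The genes that act with lysyl oxidases were followed in 8 lists of 70 genes. In TN against MGN 7 rose, 27 fell and 33 were not called of 67 tested, beside 12.8% higher and 22.3% lower over all genes, with a median log2 fold change of -0.56 beside -0.05 over all genes. In TNP against MGNP 11 rose, 25 fell and 32 were not called of 68, beside 14.7% higher and 24.0% lower over all genes, with a median of -0.30 beside -0.07. Single lists are small, and their counts below stand beside these same shares. Among 11 genes for lysyl hydroxylation and glycosylation, the steps that prepare collagen lysines, 2 rose and 2 fell in TN against MGN, and 3 rose and 1 fell in TNP against MGNP. *Plod2*, whose enzyme hydroxylates the lysines of collagen telopeptides, rose by 2.38 ± 0.18 in TNP against MGNP (SE; limma adjusted p = 2.93e-05). *Colgalt2*, a collagen galactosyltransferase gene, fell by 2.77 in TN against MGN (SE 0.49, limma adjusted p = 0.00183). Of 6 genes for prolyl hydroxylation and folding, 1 rose and 1 fell in TN against MGN and 2 rose and 1 fell in TNP against MGNP. *P4hb*, the beta subunit of prolyl 4-hydroxylase, rose by 1.46 ± 0.17 in TN against MGN (SE; limma adjusted p = 0.000262), and *P4ha3*, an alpha subunit, rose by 2.33 ± 0.44 in TNP against MGNP (SE; limma adjusted p = 0.00234).

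Of 9 tested genes that process the LOX propeptide and procollagen, 1 rose and 6 fell in each tumor comparison. *Pcolce2*, a procollagen C-proteinase enhancer, fell by 5.92 in TN against MGN (SE 0.92, limma adjusted p = 0.00108) and fell by 4.81 in TNP against MGNP (SE 0.31, limma adjusted p = 1.37e-05). Of 17 elastic fibre genes 2 rose and 9 fell in TN, and 2 rose and 8 fell in TNP. *Efemp1*, which encodes fibulin-3, went from 4515 ± 1632 to 219 ± 158 normalized counts between MGN and TN and from 2596 ± 762 to 114 ± 23.1 between MGNP and TNP (SD, n = 4). Of 6 small proteoglycan genes 4 fell in each comparison, led by *Dcn*, decorin, which went from 30330 ± 2339 to 1144 ± 1424 between MGN and TN. *Aoc3*, an amine oxidase of adipocytes and vascular walls, fell by 5.82 in TN against MGN and led the list of other amine oxidases and cross-linking enzymes, in which 3 of 5 tested genes fell in each comparison and 1 of 5 rose in TNP against MGNP.

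The fibrillar collagen substrates were split. Of 8 tested in TN against MGN 1 rose and 2 fell, and of 9 tested in TNP against MGNP 2 rose and 2 fell. *Col11a1*, a chain of type XI collagen, rose from 733 ± 1092 normalized counts in MGN to 34900 ± 7345 in TN, and from 348 ± 372 in MGNP to 24020 ± 3454 in TNP (SD, n = 4). The log2 fold changes were 6.73 ± 0.87 (SE; limma adjusted p = 0.000448) and 6.74 ± 0.67 (SE; limma adjusted p = 8.98e-05). Of 5 copper delivery genes, which load the metal of the active site, none was called in either comparison. In MGNP against MGN and in TNP against TN none of the genes of these lists was called, of 68 and 67 tested, where 0% and 0.0421% of all genes were.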

How the data were processed

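The signal deposited by the authors was a single table of normalized counts, that is, read counts per gene divided by 1 DESeq2 size factor per library, with 1 column for each of 19 libraries. By the study's methods, RNA was read as pairs of 75 bases and aligned to GRCm38 with TopHat2 (2.1.1 per the submitters' processing notes) and Bowtie2; the kit is a total RNA kit per the labels but an mRNA kit per the methods, and the counting tool, annotation and strand setting are not given in the sources used here. Whole reads were recovered for 100% of values (tolerance 0.05 reads), and size factors were larger in MGWT than elsewhere. Gene IDs were matched to GENCODE vM21 (45229 of 46078).

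Main tests used limma 3.58.1 (trend) on log2(normalized count + 1), with only the groups compared, over genes with at least 10 normalized counts in as many libraries as the smaller group; all 5 members passed in every comparison. Called genes had a Benjamini-Hochberg adjusted p under 0.05 and at least a 2-fold change. Fold changes are on this log2 scale and understate those of low genes. Exact permutation tests were two-sided. edgeR 4.0.16 and DESeq2 1.42.0 on recovered reads, other pseudocounts, filters and scalings, each library left out, the replicate number as a block, the muscle score as a covariate and TNP replicates 1 and 2 averaged were alternatives. The limma test of TN against MGN was checked on simulated counts, and the other tests and comparisons were not checked in this way. The study's results text calls the samples of each group biological replicates.

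Every member was to be named in every comparison, and for each pathway list the gene with the largest change among those called in TN against MGN and in TNP against MGNP. *Acan*, *Matn3*, *Tcf21*, *Htra2*, *Gm27177*, *Col1a1*, *Erbb2* and *Trp53* were named beside this rule. The members and lists were chosen with earlier results of these data known.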

Additional observations from a re-analysis of the deposited data

Results flagged for a closer look

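In 2 of 20 sets of 4 libraries, a single library stood apart from its group by Dixon's criterion for the gap to the nearest library over the range, where chance alone gives about 1 in 20. *Lox* in TN replicate 3 had a ratio of 0.848, with 2968 normalized counts against 508 to 664 in the other TN tumors. *Loxl3* in TN replicate 1 had a ratio of 0.911, with 777 against 3456 to 4001. The fibroblast score of TN replicate 3 was 9.25 and that of TN replicate 1 was 8.16, and the part of tissue makeup in either value was not tested.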

How the results depend on the processing

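Counts of called members moved by more than 1.5 times in few cases, with the cause not tested. DESeq2 on recovered reads called 4 members in MGN against MGWT (2 with limma), beside 7158 of all genes (7037 with limma). It called 2 in MGNP against MGN (0 with limma), beside 526 of all genes. A fit of all 5 groups called 1 member in MGN against MGWT, beside 6212 of all genes, and 2 in TN against MGWT, beside 8076. Leaving out single libraries gave 1 to 3 member calls in MGN against MGWT, beside 6576 to 6953 of all genes. In TN against MGWT it gave 1 to 2, beside 6622 to 7799, and in TN against MGN 2 to 5, beside 5744 to 6737. In TNP against MGNP it gave 3 each time, beside 6720 to 7244, and in TNP against MGWT 2 to 3, beside 8364 to 8723. In MGNP against MGWT it gave 0 each time, beside 4928 to 6554 of all genes. It also gave 0 each time in MGNP against MGN, beside 0 to 318 of all genes, and in TNP against TN, beside 0 to 52. The interaction had 0 each time as well, beside 0 to 194. In MGN against MGWT *Lox* was called without MGWT replicate 2 or MGN replicate 3 and *Loxl1* without MGN replicate 1, and in TNP against MGWT *Loxl4* was called without MGWT replicate 1 or TNP replicate 4. *Loxl4* had 17 to 36 recovered reads in the TNP libraries.

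Same-numbered libraries correlated between -0.257 and 0.285 in their deviations and the numbers were not taken as pairs. With the replicate block 3 members were called in MGN against MGWT and 3 in TNP against MGWT. Without it 2 were called in each, beside 7037 and 8710 of all genes. The block called somewhat fewer of all genes in both comparisons, and no other count of members moved with it. The replicate block gave *Lox* -0.06 in MGNP against MGWT and *Loxl4* 0.17 in TN against MGWT.

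Signs turned only where the main value had not been called. In MGNP against MGWT *Lox* was -0.02 with TMM scaling, -0.17 with edgeR and DESeq2 and -0.83 with the muscle covariate, which also gave *Loxl3* 0.06 and *Loxl4* -0.33. The muscle score did not overlap between MGNP and MGWT, so that fit could hardly tell muscle from genotype. With edgeR and DESeq2, *Loxl4* was 0.54 in TN against MGWT, and in the interaction *Loxl3* was -0.03 and *Loxl4* -0.49. Leaving out single libraries, *Lox* ranged from -0.36 to 0.56 in MGNP against MGWT, from -0.28 to 0.83 in TN against MGWT and from -0.74 to 0.18 in TNP against MGWT. *Loxl4* ranged from -0.81 to 0.31 in TN against MGWT and from -0.33 to 0.79 in the interaction, *Loxl3* from -0.40 to 0.39 in the interaction, *Loxl2* from -0.21 to 0.14 in TNP against MGWT and *Loxl1* from -0.60 to 0.35 in TNP against TN.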
